A study of Mus musculus with 4 samples.

Results

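Matrix metalloproteinases (MMPs), the ADAMTS proteases, the ADAMTS-like (ADAMTSL) proteins and the tissue inhibitors of metalloproteinases (TIMPs) were described as 1 gene family system in cultured fat-derived mesenchymal cells of the mouse. Members were all genes whose symbol is Mmp, Adamts or Adamtsl followed by a number, or Timp1 to Timp4, and whose exon length in the deposited table was above 0. This gave 51 members of 32555 genes, namely 23 MMPs, 19 ADAMTS proteases, 5 ADAMTSL proteins and 4 TIMPs. The cells called 6F were adipose tissue-derived mesenchymal cells (ADRCs) at passage 2 that had received 6 factors by lentivirus. They were sorted for green fluorescence (GFP) and were collected 3 weeks after transduction. Their strain is given as C57BL/6-Tg (Myh6-EGFP) MG3Tm, in which the promoter of the cardiac myosin gene Myh6 drives GFP. The cells they were set against were ADRCs of the same passage from inguinal and axillary fat of mice aged 8 weeks, without transduction and, by the label, of strain C57BL/6J. The titles of those libraries also name a Myh6 reporter, which the strain label does not.

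Each group had 2 libraries, called a and b without order, since no label ties a column of the table to a numbered sample. Separate cultures are not mentioned in any label, so the p-values given here reflect library-to-library spread alone, and that spread may be technical. Transduction, sorting, time in culture and strain changed together between the groups, and their parts cannot be told apart. Libraries were made from total RNA depleted of ribosomal RNA. They held 7593772 and 6986223 exon reads in 6F cells, against 2273897 and 2662128 in ADRCs. All 10 listed mesenchymal markers were detected in both groups. They summed to 7880 and 10933 CPM in 6F cells and 17197 and 15301 CPM in ADRCs. CPM are exon reads scaled to a common library size with TMM factors. Col1a1 alone gave 5675 and 8195 CPM in 6F cells and 13539 and 11775 CPM in ADRCs. In the test described below, Nt5e and Ly6a were higher, Pdgfrb, Thy1, Eng, Cd44 and Col1a1 were lower, and 3 did not pass. Only Pdgfrb and Cd44 kept their calls with each library left out. The 7 listed cardiomyocyte genes summed to 4258 and 4207 CPM in 6F cells and 25.5 and 29.5 CPM in ADRCs. Most of the 6F sum came from Myh6, Tnnt2 and Actc1. Tnni3 had 15.1 and 7.91 CPM in 6F cells, and Ryr2 7.24 and 13.0 CPM. Of the 6 tested, 5 were higher. The sixth, Actn2, did not pass, with 1.09 and 1.21 CPM in 6F cells against 2.41 and 2.43 CPM in ADRCs. Nkx2-5, a defining cardiac factor, had 0 reads in every library.

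MMPs are zinc-dependent endopeptidases made as inactive precursors, which a cysteine in the propeptide keeps closed until it is displaced. ADAMTS proteases carry a related catalytic domain joined to thrombospondin repeats that hold them in the matrix, and ADAMTSL proteins have the repeats without the catalytic domain. TIMPs block the catalytic site, and fat mesenchymal cells make many of these while they lay down and remodel the collagen and proteoglycan around them.

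Sequence motifs of the proteases were read from the coding parts of GENCODE M21 transcripts on GRCm38. The zinc-binding motif, HEXXHXX followed by glycine or asparagine and then XXH in amino acid letters, was encoded by 22 of 23 MMPs, 18 of 19 ADAMTS proteases, 0 of 5 ADAMTSL proteins and 0 of 4 TIMPs. The exceptions were Mmp1a, annotated as a polymorphic pseudogene, and Adamts8. Only this pattern in the longest coding sequence was searched, so a gene without a match need not lack a zinc site. The cysteine switch PRCGXPD was encoded by 17 of 23 MMPs and by 0 members of the other families. This too was a search for a single pattern in the longest coding sequence, so a gene without a match need not lack a switch. The 33 bases that encode the zinc motif are shown 5′ to 3′ on the coding strand for 5 members on which the results turn, with the codons of the 3 zinc-binding histidines in capitals. Mmp2 and Adamts14 were added to Mmp3, Mmp12 and Adamts15 after their values were seen.
Mmp3: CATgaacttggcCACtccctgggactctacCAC
Mmp12: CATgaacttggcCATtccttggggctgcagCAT
Mmp2: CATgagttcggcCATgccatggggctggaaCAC
Adamts15: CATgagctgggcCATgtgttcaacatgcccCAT
Adamts14: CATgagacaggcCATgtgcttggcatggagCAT
Mmp3 lies at chr9:7445822-7455975, Mmp12 at chr9:7344381-7369499, Mmp2 at chr8:92827291-92853420, Adamts15 at chr9:30899155-30922452 and Adamts14 at chr10:61197112-61273438. The motif starts at residue 220 in Mmp3, 222 in Mmp12, 403 in Mmp2, 361 in Adamts15 and 388 in Adamts14. Adamts15 has an asparagine codon (aac) at the eighth position of the motif and the other 4 have a glycine codon. Among 39 members read at this position, 5 had asparagine there and 34 glycine.

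In 6F cells the inhibitor repertoire was led by Timp3 and Timp2, both higher than in ADRCs, while Timp1 was lower. The stromelysin gene Mmp3 and the proteoglycanase gene Adamts15 had the largest fitted rises among members read in all 4 libraries, and the macrophage elastase gene Mmp12 the largest fall. Of the 51 members, 32 had enough reads to be tested, and 10 of these rose and 5 fell in 6F cells by edgeR's quasi-likelihood test at an adjusted p under 0.05, while 17 did not pass. That is 46.9% of the tested members. The share over all 12573 tested genes was 47.0%, with 24.2% higher and 22.8% lower, so the share of members called was close to that of genes at large. The median log2 fold change was 0.52 over the tested members and 0.07 over all tested genes. By family, 4 MMPs rose, 2 fell and 6 did not pass, against 1, 2 and 9 ADAMTS proteases, 3, 0 and 2 ADAMTSL proteins and 2, 1 and 0 TIMPs. Both 6F libraries lay above both ADRC libraries for 17 tested members and below them for 7, and the groups overlapped for 8. Over all tested genes, the libraries of the groups did not overlap for 77.8%. With a change of at least 2-fold also required, 9 members were higher and 5 lower, beside 18.6% and 14.4% of all tested genes. The counts at an adjusted p under 0.05 alone changed when 1 library was left out, as did the shares over all genes tested in the same fit. In such a fit the spread came from the group with 2 libraries alone, so its p-values do not measure spread within the other group. Without a 6F library most genes of the whole table passed, so a member that passes only there is not singled out by it. Dropping 6F library a gave 18 higher and 6 lower members of 32 tested, beside 35.0% and 32.8% of all genes, and dropping 6F library b gave 16 and 9 of 31, beside 36.8% and 34.0%. Dropping ADRC library a gave 5 and 4 of 35, beside 9.13% and 8.74%, and dropping ADRC library b gave 4 and 4 of 35, beside 8.87% and 8.47%.

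**Figure D1:**
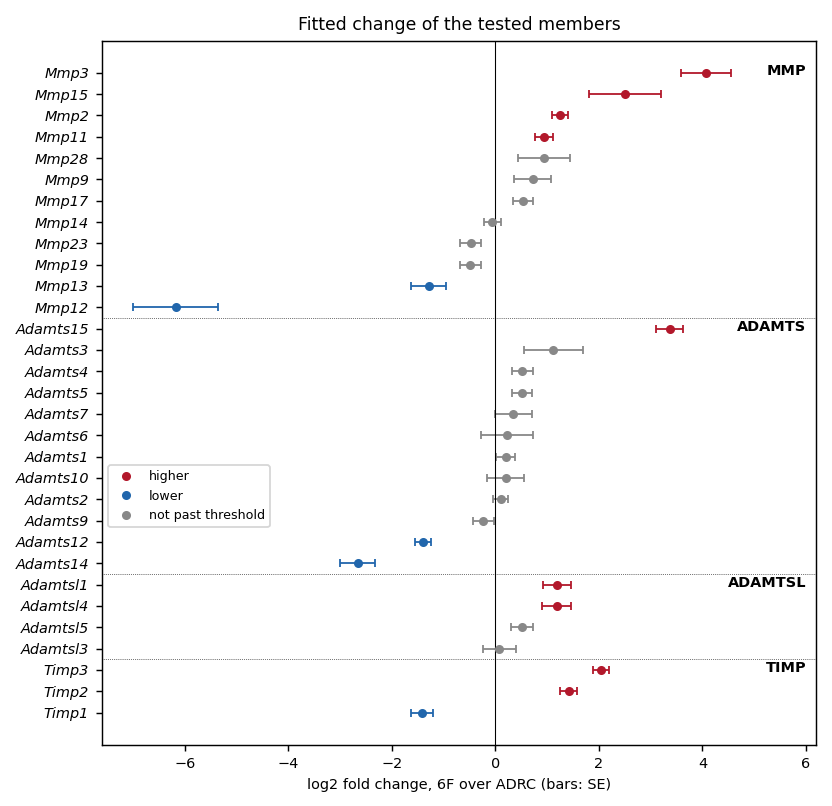
Log2 fold change of 6F cells over ADRCs (x axis) with its standard error (bars) for the tested members by family, from 2 libraries per group; Adamtsl2, which had 0 reads in ADRCs, is left out. Mmp3 (4.07) and Adamts15 (3.37) lie farthest to the right and Mmp12 (-6.18) farthest to the left, while 17 members did not pass the adjusted p threshold.

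Of the 4 TIMP genes, 3 were tested and all 3 passed, with Timp3 and Timp2 higher and Timp1 lower in 6F cells. Timp3, which encodes the inhibitor that binds the matrix and also blocks ADAMTS aggrecanases, had 1944 and 2083 CPM in 6F cells, against 487 and 492 CPM in ADRCs. Timp2, which besides its inhibition helps the membrane protease MMP14 activate pro-MMP2, had 1026 and 873 CPM in 6F cells, against 358 and 355 CPM in ADRCs. Timp1, a secreted inhibitor that acts poorly on membrane-type MMPs, had 86.7 and 125 CPM in 6F cells and 281 and 283 CPM in ADRCs. Both 6F libraries stood above both ADRC libraries for Timp3 and Timp2 and below them for Timp1, and the ADRC libraries lay close together for all of these genes. Timp3 rose by 2.04 ± 0.16 on the log2 scale (SE, n = 2 libraries per group), which is 4.11-fold (edgeR adjusted p = 0.00037). The log2 change of Timp2 was 1.41 ± 0.16 (edgeR adjusted p = 0.00121), and Timp1 fell by 1.42 on the log2 scale (SE 0.20, edgeR adjusted p = 0.00266). Timp4, found mainly in heart, brain and fat in the mouse, had too few reads for a test. In bulk libraries like these, fewer cells of a type and less RNA per cell cannot be told apart.

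Levels can be set side by side between genes only per length of exon. In RPKM, computed here as CPM per kilobase of exon, Timp3 with a mean level of 247 and Timp2 with 244 headed the members in 6F cells, ahead of Mmp2 at 184, Mmp14 at 151 and Timp1 at 119 RPKM. In ADRCs Timp1 came first at 318 RPKM, ahead of Mmp14 at 157, Timp2 at 91.5, Mmp2 at 77.5 and Timp3 at 60.1 RPKM. Within a library the level of Timp3 over that of Timp1 was 2.45 and 1.82 in 6F cells, and 0.189 and 0.190 in ADRCs. The order of Timp3 and Timp1 was thus opposite in the 2 groups in every library. Summed over the family, TIMPs stood at 600 and 620 RPKM in 6F cells and 468 and 470 RPKM in ADRCs. Their share of the RPKM of all members, 44.0% and 47.0% in 6F cells against 45.6% and 47.7% in ADRCs, overlapped between the groups. MMPs summed to 525 and 483 RPKM in 6F cells and 360 and 328 RPKM in ADRCs, and ADAMTS proteases to 218 and 194 RPKM against 187 and 175 RPKM. ADAMTSL proteins were the lowest family, with sums of 19.8 and 22.8 RPKM in 6F cells and 12.9 and 12 RPKM in ADRCs. No test was run on these sums.

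**Figure D2:**
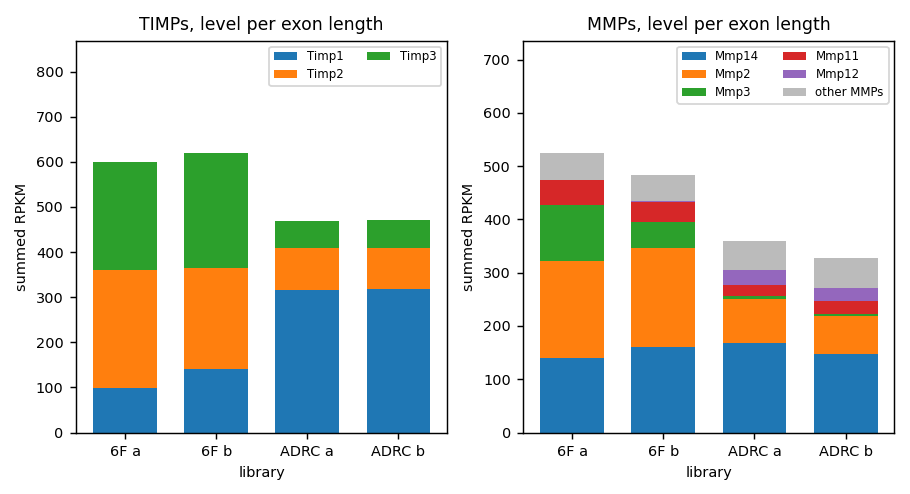
Stacked RPKM (y axis, from 0) of Timp1, Timp2 and Timp3 (left) and of the MMPs (right) in each 6F and ADRC library (x axis), with Timp4 left out. Timp1 has a mean of 119 RPKM in the 6F libraries and 318 RPKM in the ADRC libraries, and Timp3 one of 247 against 60.1 RPKM.

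The gelatinases and the membrane-type MMPs did not move as 1 group. Mmp2 encodes gelatinase A, which degrades denatured collagen and basement membrane, and had 614 and 628 CPM in 6F cells, against 278 and 244 CPM in ADRCs. Its log2 change was 1.25 ± 0.15 (edgeR adjusted p = 0.00154), and it lost the call without ADRC library b, where the edgeR adjusted p was 0.065. Mmp14, the membrane protease that activates pro-MMP2 on the cell surface, had 451 and 517 CPM in 6F cells and 539 and 472 CPM in ADRCs. The libraries of the groups overlapped for Mmp14, and its log2 change of -0.06 ± 0.16 did not pass (edgeR adjusted p = 0.771), with a sign that turned under 3 of the alternatives. Per length, the level of Mmp2 over that of Mmp14 was 1.30 and 1.16 in 6F cells and 0.492 in both ADRC libraries, and that of Mmp14 over Timp2 was 0.533 and 0.718 in 6F cells and 1.82 and 1.61 in ADRCs. Mmp2 over Timp2, in contrast, was 0.691 and 0.832 in 6F cells and 0.898 and 0.795 in ADRCs, which overlapped.

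Mmp15, a second transmembrane MMP, had 39 and 11 CPM in 6F cells, against 4.33 and 4.45 CPM in ADRCs. Both 6F libraries were higher, but they differed from each other more than the ADRC libraries did. Its log2 change was 2.51 ± 0.70 (edgeR adjusted p = 0.0264). Leaving out 6F library a gave 1.33, and leaving out b gave 3.17. The call was lost without either ADRC library. Mmp11, known as stromelysin 3 and activated inside the cell by furin, had 130 and 107 CPM in 6F cells, against 59.2 and 63.9 CPM in ADRCs. Its log2 change was 0.95 ± 0.17 (edgeR adjusted p = 0.00608), a call that was lost without either ADRC library. The gelatinase B gene Mmp9 had 13.4 and 9.93 CPM in 6F cells and 8.18 and 6.07 CPM in ADRCs, and Mmp17, which encodes a membrane MMP held by a lipid anchor, had 29.7 and 29.6 CPM against 20.2 and 20.6 CPM. Neither passed, with edgeR adjusted p of 0.137 for Mmp9 and 0.0643 for Mmp17, though Mmp9 did without 6F library b and Mmp17 without either 6F library. Mmp19, Mmp23 and Mmp28 also did not pass. Their log2 changes were -0.49 ± 0.20 for Mmp19, -0.48 ± 0.20 for Mmp23 and 0.94 ± 0.51 for Mmp28, with edgeR adjusted p between 0.092 and 0.17. Mmp19 and Mmp28 passed without 6F library b, and Mmp23 without either 6F library. Most genes of the whole table passed in the fits without a 6F library.

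The secreted MMPs encoded side by side on chromosome 9 included the largest changes of the MMP family in both directions. Mmp3, a stromelysin that cleaves proteoglycans, fibronectin and other pro-MMPs, had 189 and 86.0 CPM in 6F cells, against 10.1 and 6.47 CPM in ADRCs. Both 6F libraries were many times higher than either ADRC library, though a was above b. The fitted difference was 16.8-fold, or 4.07 ± 0.48 on the log2 scale (edgeR adjusted p = 0.00126). Leaving out 6F library a gave 3.40, and leaving out b gave 4.57. Mmp13, a collagenase that cuts fibrillar collagen, lies at chr9:7272514-7283331 and had 5.31 and 4.83 CPM in 6F cells, against 14.0 and 10.9 CPM in ADRCs. It fell by 1.29 on the log2 scale (SE 0.34, edgeR adjusted p = 0.0221), and lost the call without either ADRC library and with DESeq2 (adjusted p = 0.0751).

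Mmp12, the macrophage elastase gene, had 1 and 39 exon reads in 6F cells, against 406 and 452 in ADRCs. In CPM this was 0.121 and 5.23 in 6F cells and 195 and 183 in ADRCs. Both 6F libraries were far below the ADRC libraries and also far from each other. The gene fell by 6.18 on the log2 scale (SE 0.83, edgeR adjusted p = 0.00204), which is 72.3-fold lower, and the change was -5.16 without 6F library a. Without 6F library b the value rests on 1 read, and the pooled ratio of ADRCs over that library was 1563 (95% exact interval 280 to 61793, counting error only).

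The summed level of the listed macrophage markers was lower in both 6F libraries than in both ADRC libraries, and lowest in 6F library a, as was Mmp12. The 10 markers summed to 10.7 and 136 CPM in 6F cells and 308 and 332 CPM in ADRCs, and Ptprc, Adgre1, C1qb, C1qc and Fcgr1 had 0 reads in 6F library a. Of the 9 markers tested, Cd68 and Csf1r were lower and 7 did not pass, and Csf1r lost its call without ADRC library b, which leaves Cd68. The 9 listed markers of neutrophils and mast cells, other sources of secreted MMPs, summed to at most 1.44 CPM in a library, and 6 of them had 0 reads throughout. How much of the Mmp12 difference goes with macrophages in the cultures was not tested.

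**Figure D3:**
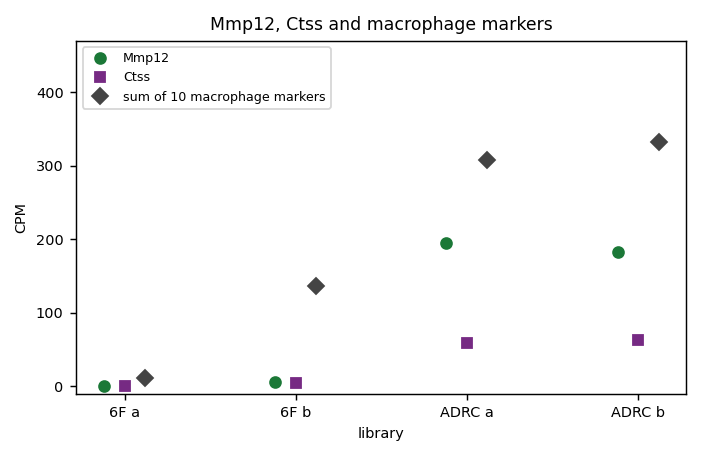
CPM (y axis, linear) of Mmp12, of the cathepsin gene Ctss and of the sum of 10 macrophage markers in each library (x axis), 6F cells left of ADRCs, with 1 point per library. All are lowest in 6F library a, at 0.121 CPM for Mmp12 and 10.7 CPM for the markers, and higher in both ADRC libraries than in both 6F libraries.

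The 10 MMP genes of this cluster span chr9:7272514-7699585, and 3 of them were tested, Mmp3 with a rise and Mmp12 and Mmp13 with a fall. Their promoters are shown because these neighbours hold the same short motifs but changed in opposite directions. Each stretch covers 110 bases before and 20 bases from the annotated RefSeq start (GRCm38.p6), on the plus strand. Capitals mark TGANTCA, a loose pattern for sites of the AP-1 factor in which N is any base, and TATAAA, the letters of a TATA box. Each was searched on both strands. Mmp13 was added after its values were seen, and Adamtsl2 is described with its values further on.
Mmp3 at chr9:7445712-7445841: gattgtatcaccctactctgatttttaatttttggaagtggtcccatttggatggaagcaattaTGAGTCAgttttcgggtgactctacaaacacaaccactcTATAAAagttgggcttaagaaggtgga
Mmp12 at chr9:7347264-7347393: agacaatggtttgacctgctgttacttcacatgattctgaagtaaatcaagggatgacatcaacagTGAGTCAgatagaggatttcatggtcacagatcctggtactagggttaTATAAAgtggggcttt
Mmp13 at chr9:7272404-7272533: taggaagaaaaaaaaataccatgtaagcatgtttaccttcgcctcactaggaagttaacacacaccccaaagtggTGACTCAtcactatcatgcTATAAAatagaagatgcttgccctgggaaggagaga
Adamtsl2 at chr2:27079269-27079398: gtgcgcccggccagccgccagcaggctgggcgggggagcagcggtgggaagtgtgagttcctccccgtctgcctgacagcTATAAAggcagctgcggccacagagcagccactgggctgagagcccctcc
TGANTCA began 46 bases before the start in Mmp3, 44 before it in the second annotated start of Mmp12 and 35 before it in Mmp13. The first annotated start of Mmp12 held neither motif in this stretch, and Adamtsl2 held TATAAA alone. TATAAA began 7 bases before the start in Mmp3, 16 before it in Mmp13 and 30 before it in Adamtsl2. In the second annotated start of Mmp12 it lay downstream, beginning at base 5 counted from the start. In windows of 250 bases before to 50 after the start, 8 of the 10 cluster genes held TGANTCA and 9 held TATAAA, against 0 and 3 of the 26 other members with a window. Over all 32851 RefSeq windows of that length, 7.81% held TGANTCA and 13.6% TATAAA. A match describes letters only, and Mmp3, which rose, and Mmp12 and Mmp13, which fell, all held both.

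AP-1 is a dimer of Fos and Jun proteins, and its subunit genes changed in both directions. Of 10 listed, 8 were tested, with 5 rises, 1 fall, 2 that did not pass and a median log2 change of 0.68. The immediate-early gene Fos had 106 and 280 CPM in 6F cells, against 5.30 and 6.88 CPM in ADRCs, and Fosl1 had 5.79 and 9.79 CPM against 42.4 and 43.3 CPM. Fos rose by 4.97 ± 0.58 on the log2 scale (edgeR adjusted p = 0.00121), Fosb by 5.70 ± 0.80 (0.00237) and Junb by 1.23 ± 0.33 (0.0227), while Fosl1 fell by 2.46 (SE 0.29, 0.00136). The calls of Jun, Junb and Fosl2 were lost without either ADRC library, which leaves Fos and Fosb higher and Fosl1 lower. Atf3 and Jund did not pass (edgeR adjusted p of 0.864 and 0.0981).

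**Figure D4:**
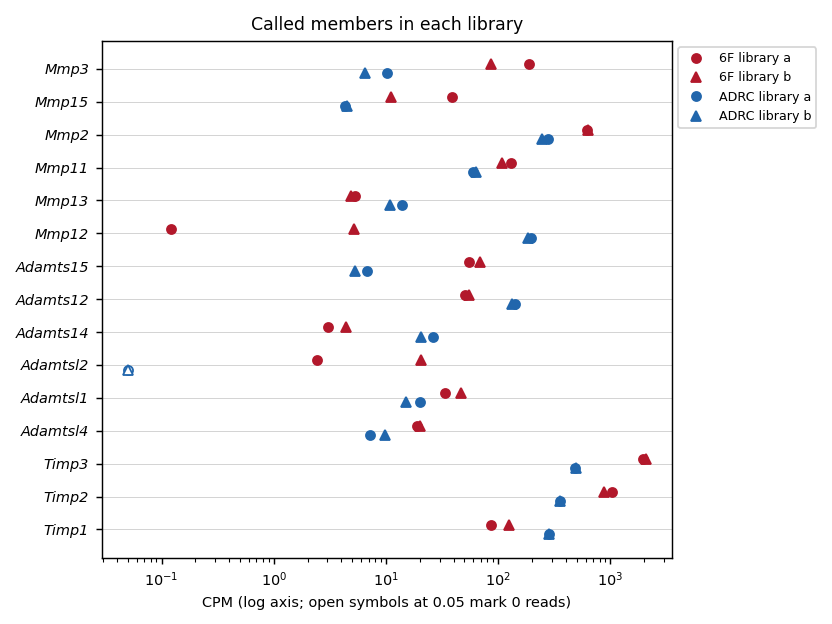
CPM (x axis, log scale) of the 15 called members (rows, by family) in each library, with 6F libraries drawn above ADRC libraries and open symbols for 0 reads. Mmp3 had 189 and 86.0 CPM in 6F cells against 10.1 and 6.47 CPM in ADRCs, and Mmp12 0.121 and 5.23 CPM against 195 and 183 CPM.

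Among the ADAMTS proteases that cut aggrecan and versican, Adamts15 rose, the tested Adamts1, Adamts4, Adamts5 and Adamts9 did not pass, and Adamts8 and Adamts20 had too few reads for a test. Adamts15 had 55.2 and 68.3 CPM in 6F cells, against 6.74 and 5.26 CPM in ADRCs. The libraries agreed within each group, and the difference was 10.3-fold, or 3.37 ± 0.26 on the log2 scale (edgeR adjusted p = 0.000325). Adamts5, the main aggrecanase of mouse cartilage, had 572 and 410.0 CPM in 6F cells and 346 and 342 CPM in ADRCs, and Adamts1 had 368 and 272 CPM against 285 and 271 CPM. Adamts4 had 40.6 and 42.0 CPM in 6F cells and 32.3 and 25.5 CPM in ADRCs. None of these 3 passed, with edgeR adjusted p of 0.072 for Adamts5, 0.408 for Adamts1 and 0.0739 for Adamts4, nor did Adamts9 (log2 change -0.24 ± 0.20, 0.371). Adamts5 and Adamts4 passed upward without either 6F library, Adamts1 passed upward and Adamts9 downward without 6F library b. Most genes of the whole table passed in those fits. Per length, Adamts5 (60.7 RPKM in 6F cells and 42.5 RPKM in ADRCs) and Adamts1 (60.3 and 52.5 RPKM) stayed the most highly read ADAMTS genes in both groups. The level of Adamts5 over that of its inhibitor gene Timp3 was 0.296 and 0.198 in 6F cells and 0.715 and 0.699 in ADRCs.

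The procollagen N-proteinases remove the amino-terminal propeptide of fibrillar collagens, and only Adamts14 of the 3 passed. Adamts14 had 3.02 and 4.43 CPM in 6F cells, against 26.5 and 20.6 CPM in ADRCs, so every 6F library was below every ADRC library. It fell by 2.66 on the log2 scale (SE 0.34, edgeR adjusted p = 0.00167). Adamts2, the main enzyme of the group in skin, had 371 and 373 CPM in 6F cells and 363 and 330 CPM in ADRCs (log2 change 0.10 ± 0.15, edgeR adjusted p = 0.593). Adamts3 was read at low depth, with 3.5 and 7.11 CPM in 6F cells and 2.41 and 2.43 CPM in ADRCs. Its log2 change of 1.12 ± 0.56 did not pass (edgeR adjusted p = 0.147) except without 6F library a, where most genes passed. Whether the change of Adamts14 differs from those of Adamts2 and Adamts3 was not tested.

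Adamts12 and Adamts7 encode proteases that cut cartilage oligomeric matrix protein. Adamts12 had 50.2 and 54.5 CPM in 6F cells, against 142 and 133 CPM in ADRCs, and fell by 1.39 on the log2 scale (SE 0.15, edgeR adjusted p = 0.00105). The Adamts7 libraries gave 12.6 and 12.5 CPM in 6F cells and 13.0 and 6.88 CPM in ADRCs, which overlapped (log2 change 0.35 ± 0.36, edgeR adjusted p = 0.459). Comp, the gene of that substrate, had 64 and 110 reads in 6F cells and only 2 in each ADRC library. It rose by 3.63 ± 0.62 on the log2 scale (edgeR adjusted p = 0.00477). Adamts10, linked to fibrillin microfibrils, had 17.9 and 35.9 CPM in 6F cells and 24.6 and 22.3 CPM in ADRCs, and Adamts6 had 14.7 and 43.7 CPM against 26.0 and 23.9 CPM. For both genes the 6F libraries lay on either side of the ADRC libraries and the change did not pass (edgeR adjusted p of 0.674 and 0.73), though Adamts10 passed upward without 6F library a. The log2 change of Adamts6 was -0.72 without 6F library b (edgeR adjusted p = 0.000543) and 0.82 without 6F library a (4.38e-06), so its direction rests on 1 library.

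ADAMTSL proteins bind the microfibril network, and mutations of ADAMTSL2 and ADAMTSL4 in humans cause connective tissue disease. Adamtsl2 had 20 and 154 reads in 6F cells, or 2.41 and 20.7 CPM, and 0 reads in both ADRC libraries. Against a floor of 3 reads over the ADRC group, 0.659 CPM, it was at least 16.8-fold higher in 6F cells (edgeR adjusted p = 0.0409), with a bound of 31.3 when 6F library a was dropped and 3.66 when b was. Adamtsl1 had 33.4 and 46.7 CPM in 6F cells, against 20.2 and 15 CPM in ADRCs (log2 change 1.19 ± 0.27, edgeR adjusted p = 0.0128). Adamtsl4 had 18.8 and 19.99 CPM in 6F cells, against 7.22 and 9.71 CPM in ADRCs (log2 change 1.19 ± 0.28, edgeR adjusted p = 0.0146). All of these calls were lost without either ADRC library, and the bound for Adamtsl2 was 9.11 without ADRC library a and 7.65 without b. Adamtsl5 had 49.5 and 40.1 CPM in 6F cells and 34.7 and 27.9 CPM in ADRCs, and Adamtsl3 had 14.6 and 25.2 CPM against 17.8 and 19.8 CPM. Neither passed (edgeR adjusted p of 0.0879 and 0.86), though Adamtsl5 did without either 6F library and Adamtsl3 without 6F library a. Most genes of the whole table passed in those fits.

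The remaining 19 members had too few reads for a test. Of these, 4 had 0 reads in every library (Adamts13, Mmp1a, Mmp20 and Mmp7), where 0 reads leave room for levels up to 0.191 CPM in 6F cells and 0.659 CPM in ADRCs, 10 had 1 to 9 reads over the 4 libraries and 5 had at least 10. Mmp27 had 22 and 8 reads in 6F cells and 2 and 0 in ADRCs, a pooled ratio of 4.34 (95% exact interval 1.10 to 37.4), and Adamts17 had 4 and 12 reads against 0 and 0, at least 1.54-fold higher over the floor. Mmp16 and Mmp24 encode further transmembrane MMPs. Mmp16 had 2 and 12 reads in 6F cells and 2 and 4 in ADRCs, and Mmp24 had 6 and 8 reads against 0 and 1, a ratio of 4.05 (0.616 to 171). Adamts8 had 4 and 4 reads in 6F cells and 1 and 1 in ADRCs, a ratio of 1.16 (0.231 to 11.2). These intervals cover counting error only, and ADRC libraries were the shallower ones.

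**Figure D5:**
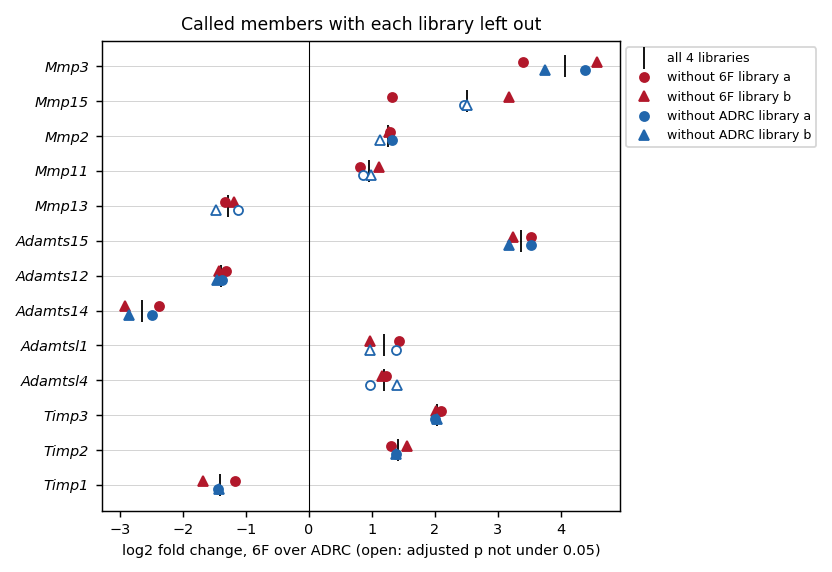
Log2 fold change of 6F cells over ADRCs (x axis) of called members (rows) with all 4 libraries (bars) and with each library left out (symbols, open where the edgeR adjusted p was not under 0.05). Adamtsl2 and Mmp12, which had 0 reads or 1 read in a library, are left out. Every symbol lies on the same side of 0 as its bar, and open symbols appear only where an ADRC library was left out.

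In GENCODE M21, 13 of the 51 members share 90 to 1733 exon bases with a gene on the opposite strand, and 8 of these were tested. The called ones were Timp3, which shares 1733 bases with Syn3, Mmp12, which shares 157 with Mmp1b, and Mmp11, which shares 155 with Chchd10. The other 5 tested ones were Adamts4, Adamts7, Adamts9, Mmp19 and Mmp28, with 122 to 1381 shared bases. Without strand, the reads of such pairs cannot be told apart. The calls of Timp1, Timp2, Timp3, Mmp3, Mmp12, Adamts12, Adamts14 and Adamts15 held under all alternatives run, and those of the other 7 called members did not.

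The other genes of proteolysis, as the set is called here, came from 6 lists holding 75 genes. The set also took in matrix substrates and the AP-1 subunits above, of which 8 were tested, with 5 rises and 1 fall. Of the whole set, 58 were tested, with 23 higher, 16 lower and a median log2 change of 0.02. The 39 called are 67.2% of those tested, beside 47.0% of all tested genes, of which 24.2% were higher and 22.8% lower. No test of that difference was run, and the lists were chosen with earlier results known. Over the 4 fits that each left out 1 library, 7 to 26 of these were higher and 8 to 26 lower. In plasminogen activation, whose product plasmin activates pro-MMPs, 6 were tested, with 1 rise, 3 falls and 2 that did not pass. The urokinase receptor gene Plaur fell by 1.79 on the log2 scale (SE 0.22, edgeR adjusted p = 0.00139), and Serpine2 and Serpinb6a lost their calls without either ADRC library, while the activator genes Plau and Plat did not pass (0.434 and 0.0907).

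Of 10 tested activators, inhibitors and clearance receptors of metalloproteinases, 4 rose, 2 fell and 4 did not pass. Sfrp1, a Wnt modulator that also inhibits ADAM10, rose by 3.24 ± 0.25 on the log2 scale (edgeR adjusted p = 0.000334), and the proprotein convertase gene Pcsk5 by 2.63 ± 0.43 (0.00423). Reck, a membrane-anchored inhibitor of MMPs named after its values were seen, had 48.9 and 56.3 CPM in 6F cells, against 14.9 and 17.8 CPM in ADRCs, a log2 change of 1.68 ± 0.21 (edgeR adjusted p = 0.0016). Thsd4, a microfibril protein of the ADAMTSL type, had a log2 change of 1.89 ± 0.35 (edgeR adjusted p = 0.00668) and lost the call without either ADRC library. Pcolce2, an enhancer of the procollagen C-proteinase, fell by 3.96 (SE 0.72, edgeR adjusted p = 0.00599). Pcsk6, also lower, lost its call without either ADRC library. The endocytic receptor gene Lrp1, which clears MMPs and ADAMTS proteases, had a log2 change of -0.04 (edgeR adjusted p = 0.894), and Bsg, an inducer of MMPs, one of 0.69 (0.105).

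The ADAM proteases and their partners moved both ways, with 4 rises, 4 falls and 4 that did not pass among 12 tested. Adam12 fell by 2.35 on the log2 scale (SE 0.22, edgeR adjusted p = 0.000622), and the main sheddase gene Adam17 had a log2 change of -0.02 (0.949). Adam8 fell by 2.88 (SE 0.92, edgeR adjusted p = 0.0414), Adam33 rose by 1.98 ± 0.51 (0.0201) and Rhbdf2, a partner of ADAM17, by 1.35 ± 0.26 (0.00711), but each lost the call without at least 1 ADRC library. The calls of Adam10, Adam19, Adam22 and Adam23 were also lost without either ADRC library, which leaves Adam12. Of 11 other matrix proteases tested, 6 rose, 2 fell and 3 did not pass. Ctss, the cathepsin S gene of macrophages, had 0 and 4.96 CPM in 6F cells, against 58.2 and 62.3 CPM in ADRCs, and fell by 4.63 (SE 0.94, edgeR adjusted p = 0.00877) beside the macrophage markers above. Pappa2 had 163 reads over the 6F libraries and 3 over the ADRC libraries, a pooled ratio of 15.7 (95% exact interval 5.28 to 76.9, counting error only). That ratio was 19.0 without 6F library b, at least 8.53 without ADRC library a and 7.17 without ADRC library b. Ctsk, the collagenolytic cathepsin K gene, had a log2 change of 1.79 ± 0.37 (edgeR adjusted p = 0.0094) and Tll1 one of -1.77 ± 0.41 (0.0138). Both lost the call without either ADRC library, as did Ctsb, Htra1, Htra3 and Pappa, which were higher. That leaves Pappa2 higher and Ctss lower.

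Of 11 tested substrates and partners of the ADAMTS proteases, 3 rose, 4 fell and 4 did not pass. The calls of Col3a1 (higher) and of Fbn1 and Col1a1 (lower) were lost without either ADRC library. Vcan, the versican gene, had 178 and 248 CPM in 6F cells, against 601 and 551 CPM in ADRCs, and fell by 1.43 on the log2 scale (SE 0.20, edgeR adjusted p = 0.00244). Cd44, the hyaluronan receptor gene, fell by 2.13 (SE 0.36, edgeR adjusted p = 0.00483). Vwf, the substrate of ADAMTS13, rose by 2.21 ± 0.44 (edgeR adjusted p = 0.0081) and lost the call without either ADRC library. It is also 1 of the 7 listed endothelial markers, which summed to 21.7 and 42.7 CPM in 6F cells against 40.0 and 43.7 CPM in ADRCs. Of the 5 endothelial markers tested, Vwf was higher, Pecam1 and Cdh5 were lower and 2 did not pass, and no call of these 3 held in every fit without 1 library. The fibronectin gene Fn1 and the thrombospondin gene Thbs1 did not pass (edgeR adjusted p of 0.0579 and 0.139). Among the genes named from these lists, the spread between the 6F libraries moved several values. The log2 changes lay between 4.12 and 5.51 for Fos, 1.95 and 3.11 for Pcsk5, 1.12 and 2.27 for Ctsk, -2.80 and -1.65 for Cd44 and -6.07 and -1.94 for Adam8 over the fits without 1 library. Ctss had a log2 change of -3.59 without 6F library a, which held 0 of its reads. Pcolce2, with 9 reads in 6F library a and 1 in b, had one of -3.16 without b. Fosb, with 4 reads in ADRC library a and 1 in b, had one of 7.08 without a, which rests on 1 ADRC read, 4.90 without b and 4.86 without 6F library b.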

How the data were processed

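Total RNA depleted of ribosomal RNA was sequenced from 2 libraries of 6F cells and 2 of ADRCs, with a kit not named as strand-marking per the labels' protocols. What the authors deposited is a single table with 50600 rows of genes, whose headers name total exon reads of each library. These are raw counts as deposited, and the exon length in bases stands beside them. The submitters' processing notes name GRCm38 as the build, and no aligner or counter is given in the sources used here. Another 52 columns of per-sample values were not used, and 18045 genes with exon length 0 were left out.

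Counts were tested with edgeR 4.0.16 (filterByExpr, TMM scaling, quasi-likelihood test) in R 4.3.3, with Benjamini-Hochberg adjustment over 12573 genes and a threshold of 0.05. The SE of a log2 fold change is its size over the square root of F. RPKM are CPM per kilobase of exon. The procedure was also run on simulated counts with the same spread set for all genes and both groups. That setting does not cover the wider spread of some genes between the 6F libraries. Members and lists were chosen with earlier results of these data known. Every tested member was named with its library values if called, and from each other list up to 4 called and 2 uncalled genes. Some results are not reported here. Untested members were named from 10 reads, and sequences were taken from the 4 called members of largest change at 10 CPM or more. Positions and coding sequence are from GENCODE M21, which held all 51 members by ID, and promoters from RefSeq, which held 36. Alternatives were DESeq2 1.42.0, other scalings and filters, the ribosomal-read genes removed, 6F libraries thinned to ADRC depth, each library left out and, added after seeing the data, loess offsets on exon length.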

Additional observations from a re-analysis of the deposited data

How the results depend on the processing

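Of 381 refits of single members, 327 kept direction and side of the threshold, 14 lost and 28 gained a call, and 12 changed sign. The calls of Adamts15, Mmp3, Timp2, Timp3, Adamts12, Adamts14, Mmp12 and Timp1 held in all 12 refits run, and 0 of the 15 called members changed sign. The refits that left out 1 library gave 4 to 18 higher and 4 to 9 lower members, 1220 to 4454 higher and 1165 to 4118 lower genes of the whole table, and 7 to 26 higher and 8 to 26 lower among the other genes of proteolysis. Leaving out an ADRC library gave the low counts, and the lone library left was assumed to vary like the other group. With loess offsets 8 members were lower, and a 2-fold minimum left 1815 lower genes. Scaling by library size alone moved the median of all genes by 0.23 (3920 higher and 2128 lower of 12573, 14 higher and 5 lower of 32 members) and loess offsets by -0.18 (2559 and 3597). Without the low-count filter the median was 0.39 higher, but over 20484 genes, so that shift includes a change of gene set. Calls gained with every library kept included Adamts4, Adamts5 and Adamtsl5 with library size alone and Adamts9 with loess offsets. Adamts5 also gained one without the filter and one with thinned 6F libraries. With 1 library left out, log2 changes that turned ranged from -0.024 to 0.43 for Adamts1, -0.35 to 0.63 for Adamts10, -0.72 to 0.82 for Adamts6, -0.077 to 0.83 for Adamts7, -0.34 to 0.42 for Adamtsl3 and -0.18 to 0.043 for Mmp14. Others that turned were Adamts2 (-0.20) and Adamtsl3 (-0.16) with loess offsets, Adamtsl3 (-0.034) with thinned 6F libraries and Mmp14 (0.17) with library size alone. The cause was not tested. No paired analysis was possible because the columns carry no replicate number. Fits on unique reads and on junction reads were not run. The depth of the ADRC libraries limits the members under about 10 reads.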

Other observations

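Mature adipocyte markers were low in both groups. The 6 listed genes summed to 27.2 and 13.7 CPM in 6F cells and 3.85 and 6.07 CPM in ADRCs, and the 2 that were tested, Plin1 and Lipe, were higher in 6F cells, with both calls lost without either ADRC library. The 7 listed genes of vascular smooth muscle and pericytes summed to 8849 and 8534 CPM in 6F cells and 4692 and 4790 CPM in ADRCs, with 4 higher, 1 lower and 2 that did not pass. The calls of Tagln, Notch3 and Cspg4 were lost without either ADRC library, which leaves Myh11 and Cnn1 higher. Their part in the levels of the members was not tested.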
